A study of Mus musculus with 12 samples.

Results

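Hmox1 and 9 other genes of haem breakdown, haem transport and iron handling were followed across 12 one-colour expression arrays of BV-2, a mouse microglial line kept in continuous culture after immortalisation. The members are Hmox1, Hmox2, Blvra, Blvrb, Slc48a1, Slc40a1, Fth1, Tfrc, Bach1 and Slc11a1, taken by symbol through the RefSeq accessions of the array's probes. All 10 were on the array and all 10 were among the 19323 genes and transcripts tested. The cells received 100 ng/ml LPS (lipopolysaccharide, the outer membrane glycolipid of Gram-negative bacteria and ligand of Toll-like receptor 4) together with 20 µM curcumin (a polyphenol of turmeric), 20 µM curcumin alone, 100 ng/ml LPS alone, or neither. Treatments lasted 6 h, and the labels name no vehicle and no time for the untreated cells. Each group has 3 arrays. The labels do not say whether replicates came from separate cultures, so p-values measure the spread between these arrays, which may be technical.

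Haem oxygenase opens the haem ring and releases iron, carbon monoxide and biliverdin, and biliverdin reductase then turns biliverdin into bilirubin. Free iron is stored in ferritin or leaves the cell through ferroportin, and it enters bound to transferrin. The repressor BACH1 holds haem oxygenase 1 low until haem or electrophiles release it, after which NRF2 with small MAF proteins can occupy the same antioxidant response elements. In macrophages, and in microglia as the macrophages of the brain, this system handles haem from engulfed cells and limits the iron open to microbes.

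Promoter windows of 7 of the 10 members were available from RefSeq (GRCm38.p6), as the 250 bases before each annotated start. Hmox1, Slc48a1 and Slc40a1 are not shown. Both strands were searched for the antioxidant response element core TGACNNNGC, the MAF half-site TGCTGA and the AP-1 site TGANTCA. The half-site and the AP-1 site can overlap within a longer MAF element. Of 32817 windows of this length, 10.2% held the core, 16.1% the half-site and 6.8% the AP-1 site. Among the 12 member windows, Blvra held a core (read as GCTCGGTCA on the printed strand, 49 bases before the start) and a half-site (TCAGCA, 82 bases before), and Bach1 held a half-site (TCAGCA, 212 bases before). A match describes letters and not a bound site. The window of Blvra is printed for its core. The first window of Blvrb and those of Bach1 and Slc11a1 are printed because the expression of these genes is described below as higher with curcumin. Capitals mark the matches.
Blvra, chr2:127070407-127070656, plus strand: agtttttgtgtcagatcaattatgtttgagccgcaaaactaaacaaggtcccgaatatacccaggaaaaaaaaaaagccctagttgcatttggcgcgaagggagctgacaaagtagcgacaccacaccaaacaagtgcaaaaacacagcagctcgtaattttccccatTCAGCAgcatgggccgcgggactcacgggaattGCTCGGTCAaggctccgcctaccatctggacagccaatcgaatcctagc
Blvrb, chr7:27447728-27447977, plus strand: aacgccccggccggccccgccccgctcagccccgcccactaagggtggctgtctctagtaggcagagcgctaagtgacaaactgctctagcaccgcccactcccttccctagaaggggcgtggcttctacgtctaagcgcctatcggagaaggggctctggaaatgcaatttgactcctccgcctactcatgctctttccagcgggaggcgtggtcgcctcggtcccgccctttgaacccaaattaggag
Bach1, chr16:87698704-87698953, plus strand: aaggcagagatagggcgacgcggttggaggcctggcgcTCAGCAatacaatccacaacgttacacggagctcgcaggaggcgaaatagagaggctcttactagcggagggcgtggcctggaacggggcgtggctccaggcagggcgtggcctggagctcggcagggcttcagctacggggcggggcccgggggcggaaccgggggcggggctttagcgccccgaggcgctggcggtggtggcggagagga
Slc11a1, chr1:74374953-74375202, plus strand: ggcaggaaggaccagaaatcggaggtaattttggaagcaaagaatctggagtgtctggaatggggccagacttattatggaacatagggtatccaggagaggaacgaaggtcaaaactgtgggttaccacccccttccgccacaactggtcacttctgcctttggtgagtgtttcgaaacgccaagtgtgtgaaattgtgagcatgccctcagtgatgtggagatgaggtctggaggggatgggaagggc

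Expression is given as the signal of a gene's probe divided by the 75th percentile of the signals on the same array, and tests used the log2 of this value. Agilent spike-in RNAs, which are added to each labelling, gave a second scale. The 75th percentile lay 2.05 to 2.36 (log2) below the spike-in probes on the curcumin arrays, 1.36 to 2.62 below on the LPS+curcumin arrays, 1.20 to 1.48 below on the LPS arrays and 0.98 to 1.30 below on the untreated arrays. The median change of all genes tested with curcumin versus untreated was therefore 0.41 on the 75th percentile and -0.69 on the spike-ins, and with LPS+curcumin versus LPS it was 0.32 and -0.41. What makes the scales differ was not tested, and both values are given for each member. In such bulk samples, fewer cells of a type and less RNA per cell cannot be told apart.

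LPS+curcumin replicate 1 stood apart from its group. It correlated more closely with LPS arrays (0.982 on average) than with curcumin arrays (0.950), while replicates 2 and 3 were closer to curcumin arrays (0.984 and 0.985) than to LPS arrays (0.939 and 0.922). Each of the 3 slides carried 1 array of each treatment at a fixed position, so position and treatment cannot be told apart, while slide was examined as a batch. Of 11 microglia and macrophage markers, 10 were on the array and 8 were well above background on all 12 arrays. Their summed signal was 132 to 209 with LPS+curcumin, 156 to 209 with curcumin, 108 to 171 with LPS and 109 to 162 untreated. P2ry12, a marker of resting microglia, was well above background on 4 arrays, 1 with curcumin and 3 untreated. The summed signal of 3 endothelial markers moved with curcumin, at 0.0111 to 0.159 with LPS+curcumin and 0.0926 to 0.13 with curcumin, against 0.00787 to 0.0127 with LPS and 0.00679 to 0.00812 untreated. Pecam1 was detected on 5 curcumin-treated arrays, Cldn5 on 1, and Cdh5 on none. The sum of 4 of 5 erythroid markers found on the array was 0.0547 to 0.233 with LPS+curcumin and 0.0964 to 0.123 with curcumin, against 0.0493 to 0.0658 with LPS and 0.0656 to 0.074 untreated. Hba-a1 and Klf1 were detected on all 12 arrays and Alas2 on none. The sum of 4 neuronal markers was 0.0198 to 0.0565 with LPS+curcumin and 0.03 to 0.0381 with curcumin, against 0.0171 to 0.0272 with LPS and 0.0151 to 0.0188 untreated. That of 4 fibroblast markers was 0.0169 to 0.199 and 0.0686 to 0.139 in the curcumin-treated groups, against 0.0414 to 0.0619 with LPS and 0.0417 to 0.0718 untreated, with Col3a1 and Dcn undetected. Astrocyte and oligodendrocyte sums overlapped between curcumin (0.0134 to 0.021 and 0.38 to 0.484) and untreated arrays (0.0112 to 0.0157 and 0.318 to 0.473). With LPS they were 0.0125 to 0.0205 and 0.318 to 0.445. With LPS+curcumin they were 0.0175 to 0.039, above the untreated astrocyte range, and 0.325 to 0.685. The part of these markers in the results was not tested.

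Curcumin raised Hmox1 in resting and in LPS-treated cells, on both scales and by more than any other member in these data. Of the 10 members, 5 were higher and 0 lower with curcumin versus untreated (limma, adjusted p below 0.05), where 29.2% of all genes tested were called, 21.9% higher and 7.28% lower. With LPS+curcumin versus LPS, 3 members were higher and 0 lower, against 18.7% of all genes called, 12.7% higher and 5.99% lower. On spike-in scaling, 1 member was higher and 3 lower with curcumin versus untreated (49.7% of all genes called, 7.23% higher and 42.4% lower), and 1 was higher and 1 lower with LPS+curcumin versus LPS (16.8% called, 4.81% higher and 12% lower). The member median was 0.64 on the 75th percentile and -0.47 on the spike-ins with curcumin versus untreated, and 0.66 and -0.08 with LPS+curcumin versus LPS. Hmox1 was the member called on all 5 scalings tried, in both comparisons.

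**Figure D1:**
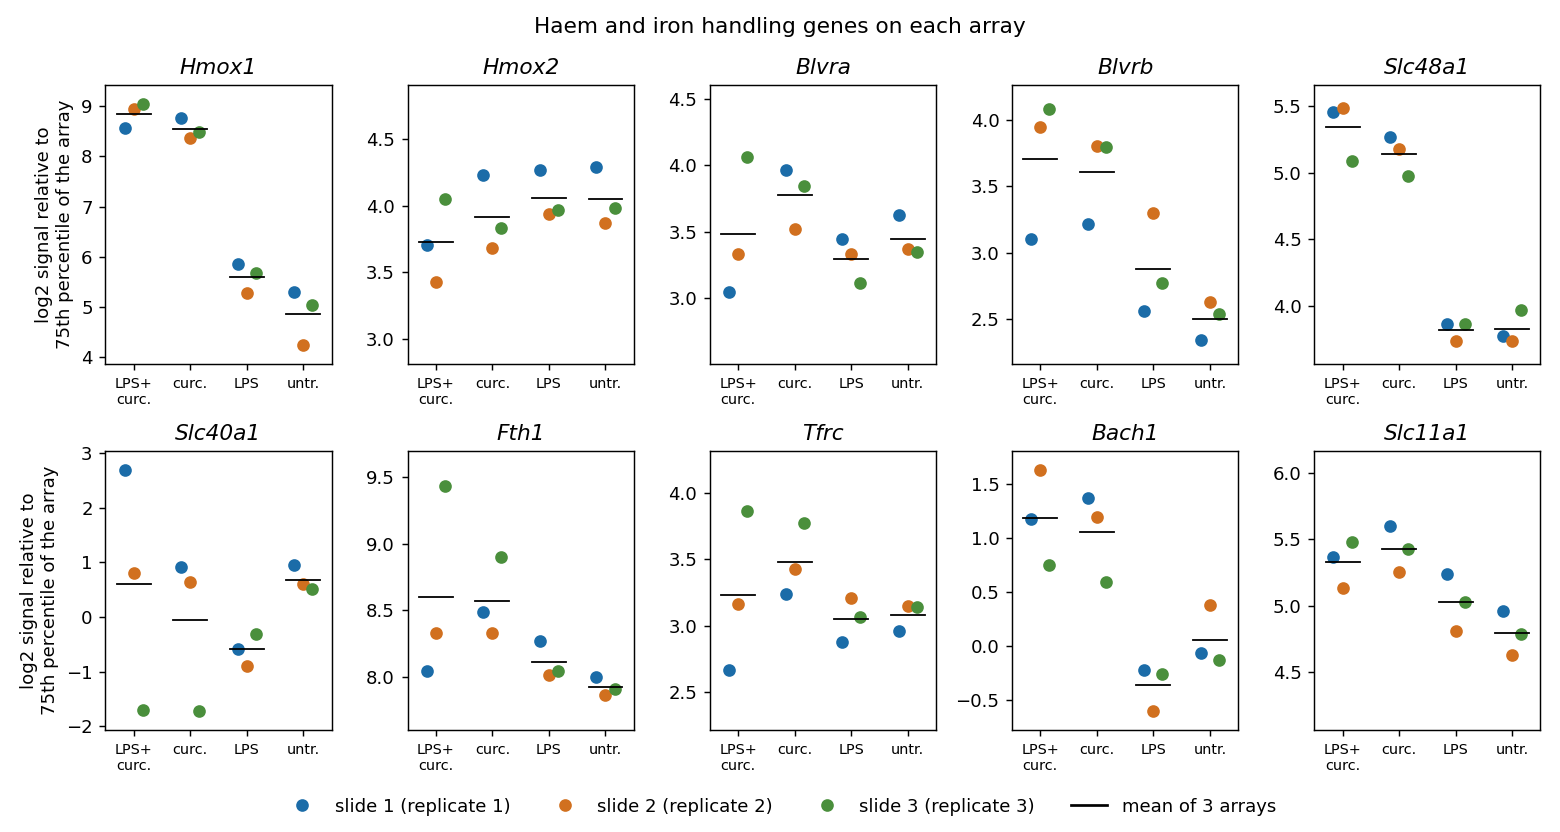
Log2 signal of each of the 10 genes relative to the 75th percentile of its array, for the 4 treatments. Points are single arrays coloured by slide and bars are means of 3 arrays. The 6 curcumin-treated arrays of Hmox1 and of Slc48a1 lie above the 6 arrays without curcumin, and Slc40a1 is spread widely within both curcumin groups.

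Hmox1 encodes haem oxygenase 1, the inducible enzyme that breaks down haem. Its signal over the 75th percentile was 377, 494 and 531 on the LPS+curcumin arrays (replicates 1 to 3), 438, 331 and 359 on the curcumin arrays, 57.7, 39.0 and 51.1 on the LPS arrays, and 39.3, 18.7 and 33.0 on the untreated arrays. All arrays with curcumin were above all arrays without it, and the LPS and untreated arrays overlapped narrowly, at 39.0 and 39.3. With curcumin versus untreated the change was 3.69 ± 0.29 on the log2 scale (SE, 3 arrays per group; limma, adjusted p = 7.4e-05), or 12.9-fold, with 3.48, 4.14 and 3.44 within slides 1, 2 and 3. With LPS+curcumin versus LPS it was 3.25 ± 0.29 (limma, adjusted p = 0.000255), or 9.51-fold, and 2.71, 3.67 and 3.38 within the slides. On spike-in scaling the same changes were 2.58 ± 0.32 (limma, adjusted p = 0.000825; 5.99-fold) and 2.51 ± 0.32 (limma, adjusted p = 0.00124; 5.70-fold). Both calls held whichever of the 12 arrays was left out, and without LPS+curcumin replicate 1 the change versus LPS was 3.40.

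The Hmox1 order was LPS+curcumin, curcumin, LPS and untreated, with mean signals of 467 ± 80.7, 376 ± 55.6, 49.2 ± 9.48 and 30.3 ± 10.5 (SD, n = 3 each). Neighbours at the top did not pass a test of their difference, at 0.31 ± 0.29 for LPS+curcumin versus curcumin (limma, adjusted p = 0.891). Nor did those at the bottom, at 0.75 ± 0.29 for LPS versus untreated (limma, adjusted p = 0.205), where LPS was above untreated within each slide by 0.55, 1.06 and 0.63. The interaction, the curcumin effect in LPS-treated cells minus that in resting cells, was -0.44 ± 0.40 (limma, adjusted p = 1), and -0.07 ± 0.46 on spike-in scaling.

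Hmox2 encodes haem oxygenase 2, the constitutive enzyme. Over the 75th percentile, its signal was 13.0, 10.8 and 16.6 with LPS+curcumin, 18.8, 12.8 and 14.2 with curcumin, 19.3, 15.3 and 15.7 with LPS, and 19.6, 14.6 and 15.8 untreated. The 4 groups overlapped. The differences were -0.13 ± 0.23 with curcumin versus untreated (limma, adjusted p = 0.657) and -0.33 ± 0.23 with LPS+curcumin versus LPS (limma, adjusted p = 0.284). On spike-in scaling Hmox2 was called lower in both, by -1.24 ± 0.33 (limma, adjusted p = 0.0132) and -1.07 ± 0.33 (limma, adjusted p = 0.0483), or -1.43 without LPS+curcumin replicate 1 (limma, adjusted p = 0.00103), so the paralogues were called in opposite directions on that scale.

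The biliverdin reductases differed in their calls. Blvrb encodes biliverdin reductase B, which also acts as a flavin reductase. On its probe, signal over the 75th percentile was 8.57, 15.4 and 16.9 with LPS+curcumin, 9.29, 13.9 and 13.9 with curcumin, 5.91, 9.84 and 6.84 with LPS, and 5.07, 6.18 and 5.80 untreated. The curcumin arrays were all above the untreated arrays, while LPS+curcumin replicate 1 lay below the highest LPS array. Blvrb was higher with curcumin versus untreated by 1.10 ± 0.30 (limma, adjusted p = 0.0209; 2.14-fold), and by 0.87, 1.17 and 1.26 within the slides. That call was kept in 7 of 12 fits that left out 1 array each, and on spike-in scaling the change was -0.01 ± 0.25 (limma, adjusted p = 0.982). In LPS-treated cells (LPS+curcumin versus LPS) it was 0.83 ± 0.30 (limma, adjusted p = 0.0724), and it passed without LPS+curcumin replicate 1 (1.13; limma, adjusted p = 0.00427) or with slide as a block (limma, adjusted p = 0.0175).

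Blvra encodes biliverdin reductase A, the main bilirubin-forming enzyme of adult tissue. Relative to the 75th percentile, Blvra signal was 8.28, 10.1 and 16.7 with LPS+curcumin, 15.6, 11.5 and 14.4 with curcumin, 10.9, 10.1 and 8.68 with LPS, and 12.4, 10.4 and 10.2 untreated. These ranges overlapped in each comparison. With curcumin versus untreated the difference was 0.33 ± 0.26 (limma, adjusted p = 0.320), and on spike-in scaling it was called lower, by -0.78 ± 0.25 (limma, adjusted p = 0.0261). In LPS-treated cells (LPS+curcumin versus LPS) it was 0.18 ± 0.26 (limma, adjusted p = 0.603) and -0.56 ± 0.25 on spike-in scaling (limma, adjusted p = 0.131), or -0.71 without LPS+curcumin replicate 1 (limma, adjusted p = 0.0297).

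Slc48a1 encodes HRG1, the transporter that moves haem out of the endolysosome into the cytosol, where haem oxygenase acts. Signal over the 75th percentile was 43.8, 44.9 and 34.0 with LPS+curcumin, 38.4, 36.2 and 31.5 with curcumin, 14.5, 13.3 and 14.5 with LPS, and 13.7, 13.3 and 15.7 untreated. All curcumin-treated arrays were above the rest, and the LPS and untreated arrays overlapped. The change was 1.32 ± 0.18 with curcumin versus untreated (limma, adjusted p = 0.00114; 2.49-fold) and 1.53 ± 0.18 with LPS+curcumin versus LPS (limma, adjusted p = 0.000874; 2.88-fold). Both calls held whichever array was left out, with 1.47 for LPS+curcumin versus LPS without LPS+curcumin replicate 1. A second probe of the gene also rose, by 0.86 (limma, adjusted p = 0.0292) and 0.95 (limma, adjusted p = 0.0276). On spike-in scaling the changes were 0.21 ± 0.35 (limma, adjusted p = 0.609) and 0.79 ± 0.35 (limma, adjusted p = 0.125), and the second probe gave -0.25 and 0.21. Without LPS+curcumin replicate 1 the spike-in change versus LPS was 0.36 (limma, adjusted p = 0.251).

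Bach1 encodes the repressor itself, which is bound and inactivated by haem. The arrays gave signals over the 75th percentile of 2.26, 3.11 and 1.68 with LPS+curcumin, 2.58, 2.29 and 1.51 with curcumin, 0.858, 0.655 and 0.835 with LPS, and 0.954, 1.30 and 0.913 untreated. Each curcumin-treated array was above each array without curcumin. Bach1 was higher by 0.995 ± 0.281 with curcumin versus untreated (limma, adjusted p = 0.0251; 1.99-fold), in 8 of 12 fits that left out 1 array each. LPS+curcumin exceeded LPS by 1.55 ± 0.28 (limma, adjusted p = 0.00596; 2.93-fold), in all 12 such fits, with 1.56 without LPS+curcumin replicate 1. On spike-in scaling neither change was called, at -0.11 ± 0.43 (limma, adjusted p = 0.825) and 0.81 ± 0.43 (limma, adjusted p = 0.185), the second being 0.45 without LPS+curcumin replicate 1.

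**Figure D2:**
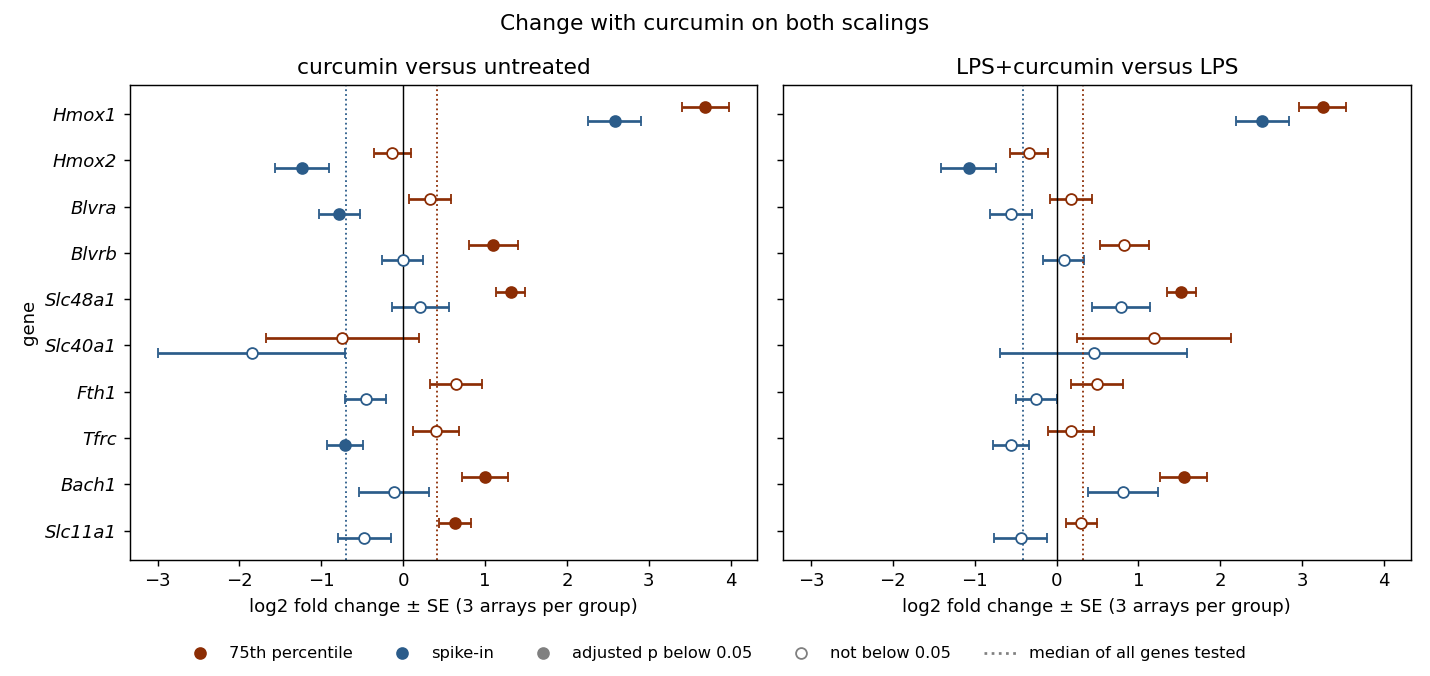
Log2 fold change ± SE of the 10 genes with curcumin versus untreated (left) and LPS+curcumin versus LPS (right), 3 arrays per group, on the 75th percentile and on the spike-ins; filled points have an adjusted p below 0.05 and dotted lines mark the median of all genes tested. Hmox1 lies at 3.69 and 3.25 on the 75th percentile and at 2.58 and 2.51 on the spike-ins, while Blvra, Blvrb, Fth1, Tfrc, Bach1 and Slc11a1 change sign with the scale in the left panel.

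Within slides on spike-in scaling, slide 3 differed in sign from slides 1 and 2 for Slc48a1 and Bach1 in LPS-treated cells. Slc48a1 differed between LPS+curcumin and LPS by 1.71, 0.84 and -0.19 on slides 1, 2 and 3, and Bach1 by 1.52, 1.33 and -0.41. With curcumin versus untreated, Slc48a1 differed by 0.43, 0.25 and -0.05, and Bach1 by 0.37, -0.38 and -0.33. Hmox1 was higher within each slide on this scale, by 2.42, 2.94 and 2.39 with curcumin versus untreated and by 2.83, 2.75 and 1.96 with LPS+curcumin versus LPS. LPS+curcumin replicate 1, which resembled the LPS arrays, is the slide 1 array of these comparisons.

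**Figure D3:**
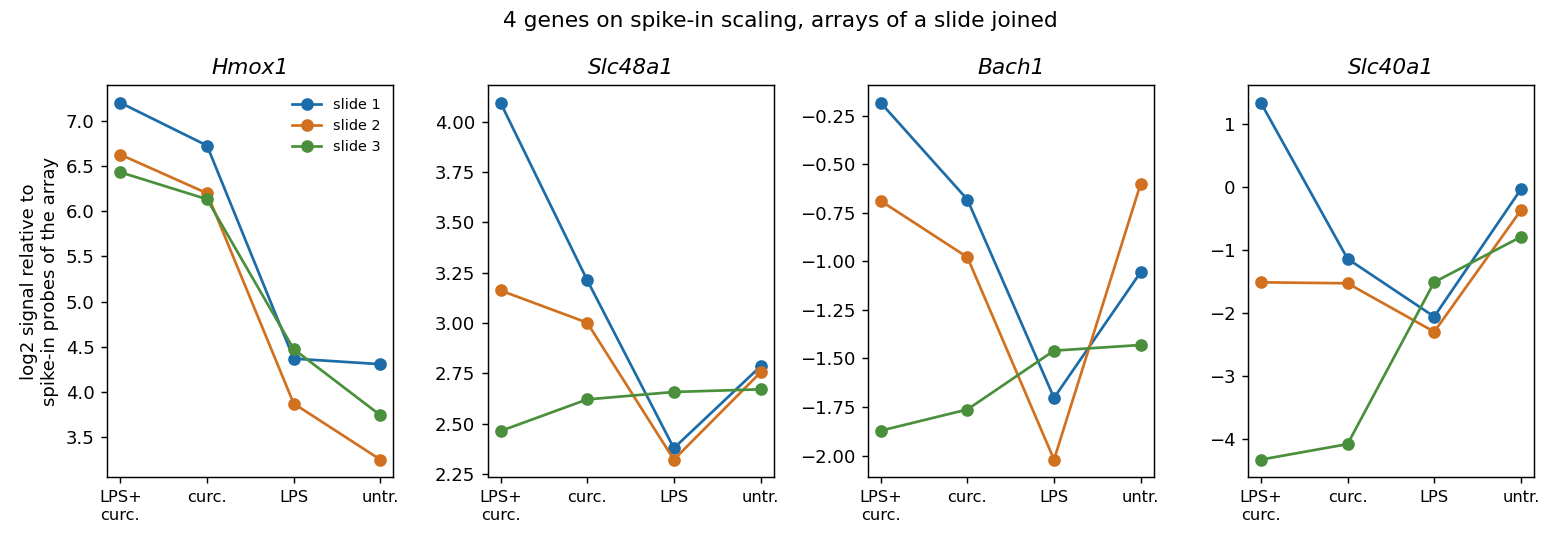
Log2 signal of Hmox1, Slc48a1, Bach1 and Slc40a1 relative to the spike-in probes of each array, by treatment, with lines joining the 4 arrays of a slide for reading only. Hmox1 is higher with curcumin on each slide, while Slc48a1 and Bach1 on slide 3 are lower with LPS+curcumin than with LPS (-0.19 and -0.41).

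Slc40a1 encodes ferroportin, the cellular iron exporter. Over the 75th percentile its signal was 6.47, 1.75 and 0.306 with LPS+curcumin, 1.88, 1.56 and 0.302 with curcumin, 0.669, 0.540 and 0.805 with LPS, and 1.93, 1.52 and 1.42 untreated. The slide 3 arrays of both curcumin groups had the lowest values of the 12, and LPS+curcumin replicate 1 the highest. No difference passed in the fit of all 12 arrays. With curcumin versus untreated it was -0.74 ± 0.94 (limma, adjusted p = 0.537), and -0.04, 0.04 and -2.23 within the slides. Between LPS+curcumin and LPS it was 1.19 ± 0.94 (limma, adjusted p = 0.350), with 3.27, 1.70 and -1.39 within the slides and 0.15 without LPS+curcumin replicate 1. On spike-in scaling these differences were -1.85 ± 1.14 (limma, adjusted p = 0.183) and 0.45 ± 1.14 (limma, adjusted p = 0.788). LPS arrays were all below untreated arrays, at -1.28 ± 0.94 (limma, adjusted p = 0.679; -1.53, -1.49 and -0.82 within the slides), and at -1.56 ± 1.14 on spike-in scaling (limma, adjusted p = 0.526). An alternative fit of these 2 groups alone, on the 75th percentile, gave this difference an SE of 0.196 and a call (limma, adjusted p = 0.00818). That fit leaves out the wide spread of the curcumin groups, and no share of all genes is given for it.

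Fth1 encodes the heavy chain of ferritin, the iron store with ferroxidase activity. The Fth1 signal over the 75th percentile was 263, 321 and 690 with LPS+curcumin, 358, 322 and 477 with curcumin, 308, 258 and 264 with LPS, and 256, 233 and 240 untreated. On this scale curcumin arrays were all above untreated arrays, and on spike-in scaling they were all below them. LPS arrays were also above untreated arrays on the 75th percentile, narrowly (258 against 256), at 0.18 ± 0.31 (limma, adjusted p = 0.968). On spike-in scaling LPS and untreated arrays overlapped, at -0.09 ± 0.25 (limma, adjusted p = 0.874). Before scaling, the processed signal of Fth1 varied by 1.28-fold over the 12 arrays, between 182444 and 233995, at most 30.1% of the saturation value, while the 75th percentile of the arrays lay between 304.5 and 979.3. The change with curcumin versus untreated was 0.65 ± 0.31 (limma, adjusted p = 0.127), and -0.46 ± 0.25 on spike-in scaling (limma, adjusted p = 0.137). In an alternative fit of those 2 groups alone it passed on the 75th percentile (limma, adjusted p = 0.021), with no share of all genes given. It was also called in the fit of all groups without LPS+curcumin replicate 3. Between LPS+curcumin and LPS it was 0.49 ± 0.31 (limma, adjusted p = 0.256), or 0.77 without LPS+curcumin replicate 1 (limma, adjusted p = 0.0439) and 0.08 without replicate 3 (limma, adjusted p = 0.822), and -0.25 ± 0.25 on spike-in scaling (limma, adjusted p = 0.487).

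Tfrc encodes the transferrin receptor, which takes up iron. Signal relative to the 75th percentile was 6.33, 8.96 and 14.6 with LPS+curcumin, 9.44, 10.7 and 13.7 with curcumin, 7.35, 9.23 and 8.38 with LPS, and 7.76, 8.86 and 8.80 untreated. Curcumin arrays were all above untreated arrays on this scale and all below them on spike-in scaling. On the 75th percentile LPS+curcumin spanned the LPS range. The change with curcumin versus untreated was 0.40 ± 0.28 (limma, adjusted p = 0.270), against -0.71 ± 0.22 and a call of lower on spike-in scaling (limma, adjusted p = 0.0229). Between LPS+curcumin and LPS it was 0.18 ± 0.28 (limma, adjusted p = 0.639) and -0.56 ± 0.22 on spike-in scaling (limma, adjusted p = 0.0945), or -0.65 without LPS+curcumin replicate 1 (limma, adjusted p = 0.0297).

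Slc11a1 encodes NRAMP1, the transporter that pumps iron and manganese out of the phagosome. The Slc11a1 signal over the 75th percentile was 41.2, 35.2 and 44.7 with LPS+curcumin, 48.4, 38.1 and 43.0 with curcumin, 37.7, 28.1 and 32.7 with LPS, and 31.2, 24.8 and 27.6 untreated. Curcumin arrays were all above untreated arrays. The change with curcumin versus untreated was 0.63 ± 0.19 (limma, adjusted p = 0.032; 1.55-fold), and 0.63, 0.62 and 0.64 within the slides. It was called in 6 of 12 fits that left out 1 array each, and on spike-in scaling the change was -0.47 ± 0.32 (limma, adjusted p = 0.224). Between LPS+curcumin and LPS it was 0.30 ± 0.19 (limma, adjusted p = 0.253), and -0.44 ± 0.32 on spike-in scaling (limma, adjusted p = 0.338), or -0.83 without LPS+curcumin replicate 1 (limma, adjusted p = 0.0118).

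With LPS versus untreated, 0 of 10 members were called by limma on the 75th percentile and 0 on the spike-ins, where 5.73% and 3.21% of all genes were called. At an unadjusted p below 0.05, 1 member passed, which was Hmox1. The member median was 0.00 and the median of all genes 0.00, or -0.27 and -0.27 on spike-in scaling. Bach1 was lower on all LPS arrays than on all untreated arrays, at -0.42 ± 0.28 (limma, adjusted p = 0.617). With LPS+curcumin versus curcumin, 0 members were called (0.212% of all genes, and 0 members against 0.109% on the spike-ins) and 0 passed at an unadjusted p below 0.05. For the interaction the counts were likewise 0 and 0 (0.73% of all genes called, and 0.29% on spike-in scaling, where 0 members were called). Apart from Slc40a1, at 1.94 ± 1.33, these last differences lay between -0.44 for Hmox1 and 0.56 for Bach1. The comparisons share arrays with one another, so their values stand side by side and are not separate evidence.

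The profile of Hmox1 over the 12 arrays was set against those of 10782 genes with a symbol and a signal well above background on all arrays, by Pearson correlation. The most alike were Rep15 (0.982), Cwc25 (0.979), Rhbdd1 (0.975), Rad54l2 (0.968) and Eif4ebp1 (0.967). The most opposed were Nin (-0.978), Zcchc8 (-0.968), Fgd4 (-0.960), Nlrp10 (-0.958) and Tmem241 (-0.957). Arrays share their treatment and scaling factor, and these values describe likeness only. On spike-in scaling Rep15 still ranked first (0.973), while Cwc25 had 0.651 and Eif4ebp1 0.617. Among members, Slc48a1 was closest to Hmox1 (0.964, rank 11). Slc11a1 (0.874, rank 390), Bach1 (0.832, rank 845) and Blvrb (0.82, rank 986) came next, then Fth1 (0.70), Blvra (0.427) and Tfrc (0.414). Slc40a1 (0.024) and Hmox2 (-0.386) were not alike. On spike-in scaling Slc48a1 had 0.631, Slc11a1 -0.389, Bach1 0.35, Blvrb 0.041 and Tfrc -0.869. Fth1 had -0.541, Blvra -0.725, Slc40a1 -0.111 and Hmox2 -0.742 on that scale.

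Beyond the members, 53 of 63 listed genes of haem and iron metabolism were tested. The lists were written with earlier results of these data known. Their shares of calls beside those of all genes, in every comparison, are therefore a description and not a test. With curcumin versus untreated 10 were higher and 2 lower, which is 22.6% called against 29.2% of all genes, with a list median of 0.44 against 0.41. On spike-in scaling 2 were higher and 22 lower, where 7.23% of all genes were higher and 42.4% lower. With LPS versus untreated 7 were higher and 1 lower (15.1% called against 5.73%), and with LPS+curcumin versus LPS 3 were higher and 4 lower (13.2% against 18.7%). Hamp and Hpx are in the counts of higher genes with curcumin versus untreated, on both scales. Lcn2 is counted higher with LPS versus untreated and lower with LPS+curcumin versus LPS. These genes entered the test through groups where they are high, so their part of the counts is no test. Of the 8 haem synthesis genes, none was called in any of the 5 comparisons on the 75th percentile, and on spike-in scaling 4 were lower with curcumin versus untreated, against 42.4% of all genes.

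Of 14 genes of iron import, storage and export tested, 4 were higher and 1 lower with curcumin versus untreated, beside 21.9% and 7.28% of all genes, and 1 was higher and 5 lower on spike-in scaling, beside 7.23% and 42.4%. Hamp encodes hepcidin, the peptide hormone that binds ferroportin and causes its removal. It had a signal over the 75th percentile of 0.0516, 0.0647 and 0.0856 with curcumin, against 0.00293, 0.00124 and 0.00141 untreated, where it was not well above background. Hamp was thus at least 11.1-fold higher, a bound set by the lowest signals that counted as well above background on the untreated arrays. It entered the test through the curcumin arrays, where it is high, so no p-value is given. It is counted above among the 4 higher genes and is the 1 higher on spike-in scaling. It was detected on 2 of 3 LPS+curcumin arrays (0.0261 and 0.0556, with 0.00183 on replicate 1) and on 0 of 3 LPS arrays. Pcbp2, an iron chaperone for ferritin, was higher by 1.01 ± 0.29 (limma, adjusted p = 0.0261), and -0.10 on spike-in scaling. Ncoa4, the receptor that delivers ferritin to the lysosome, was lower on both scales, by -0.77 ± 0.24 (limma, adjusted p = 0.0349) and -1.88 (limma, adjusted p = 0.00759). Of its other 2 probes, 1 was called (-0.69; limma, adjusted p = 0.0176) and 1 was not (-0.44; limma, adjusted p = 0.165). On the 75th percentile Pcbp2, Ncoa4 and Flvcr1, a haem exporter, were each called in 7 of 12 fits that left out 1 array each. Slc39a14 encodes a zinc and iron importer, and its 2 probes went opposite ways, at 1.14 (limma, adjusted p = 0.00527) for the brighter and -1.35 (limma, adjusted p = 0.0195) for the other, so no direction is given. The count of higher genes on the 75th percentile includes its brighter probe.

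Of 9 genes of haem transport and scavenging tested, 2 were higher and 1 lower with curcumin versus untreated (all genes, 21.9% and 7.28%), and 1 was higher and 3 lower on spike-in scaling (all genes, 7.23% and 42.4%). Hpx encodes hemopexin, which binds free haem. Its signal over the 75th percentile was 0.0522, 0.0586 and 0.0761 with curcumin, against 0.00797, 0.00851 and 0.00705 untreated, where 2 of 3 arrays were above background. Hpx was higher by 2.98 ± 0.63, and by 1.87 on spike-in scaling. With LPS it had 0.0871, 0.0321 and 0.0205, all above untreated, at 2.30 ± 0.63, and 2.03 on spike-in scaling. Hpx entered the test through the curcumin and LPS arrays, where it is high, so no p-value is given. It is counted above among the 2 genes higher with curcumin and is the 1 higher on spike-in scaling. Flvcr1 was lower by -0.86 ± 0.23 (limma, adjusted p = 0.0184), and by -1.97 on spike-in scaling (limma, adjusted p = 0.00346). Abcb6, a porphyrin transporter, was higher by 0.63 ± 0.21 (limma, adjusted p = 0.0449), but -0.48 on spike-in scaling (limma, adjusted p = 0.185), and it was called in 3 of 12 fits that left out 1 array each.

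Among 10 genes of iron regulation tested, Mafk, a small MAF partner of BACH1 and NRF2, was the 1 called with curcumin versus untreated on the 75th percentile, beside 29.2% of all genes. On the spike-ins 6 were lower, beside 42.4% of all genes. Mafk was higher (1.46 ± 0.29; limma, adjusted p = 0.00546; 0.36 on spike-in scaling, limma, adjusted p = 0.196). Of 12 genes of mitochondrial iron and iron-sulfur clusters tested, 3 were higher and 0 lower (all genes, 21.9% and 7.28%), and on spike-in scaling 0 were higher and 4 lower (all genes, 7.23% and 42.4%). The genes higher on the 75th percentile included Slc25a37, the mitochondrial iron importer mitoferrin (0.85 ± 0.22; limma, adjusted p = 0.0181) and Hscb, a cluster assembly chaperone (0.79 ± 0.19; limma, adjusted p = 0.0132). On spike-in scaling Slc25a37 had -0.26 and Hscb -0.32, and neither was called. In LPS-treated cells (LPS+curcumin versus LPS), Hscb (0.92) and Abcb6 (0.70) were called higher on the 75th percentile and had 0.18 and -0.04 on spike-in scaling. Of 12 fits that left out 1 array each, these calls were kept in 12 and 1.

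**Figure D4:**
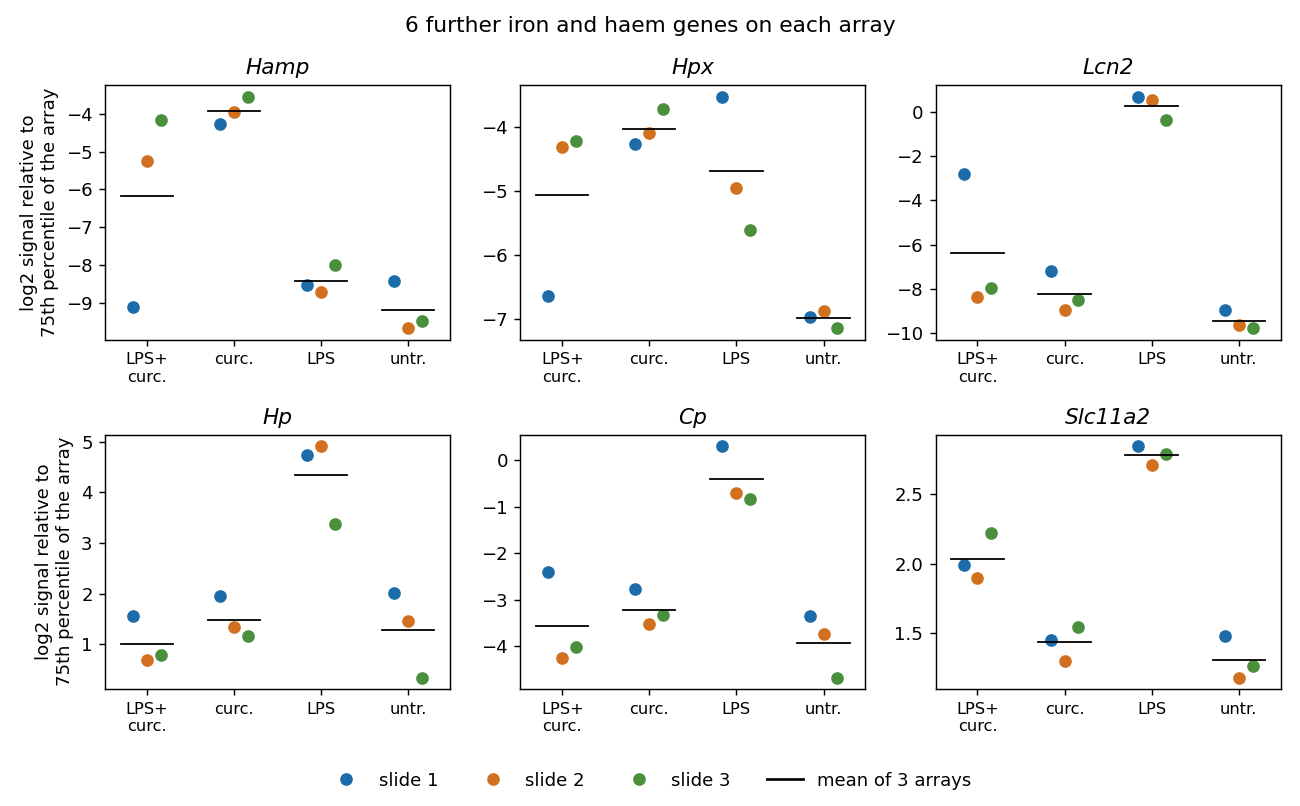
Log2 signal of 6 iron and haem genes relative to the 75th percentile of each array, for the 4 treatments. Points are single arrays coloured by slide and bars are means of 3 arrays. Lcn2, Hp, Cp and Slc11a2 are highest on the LPS arrays. Hamp is high on curcumin arrays but not on LPS+curcumin replicate 1, and Hpx is above its untreated level on curcumin and LPS arrays.

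Of the 7 listed genes called higher with LPS versus untreated, Lcn2, Hp and Cp had the highest fold changes, and all 3 encode secreted proteins. Lcn2 encodes lipocalin 2, which binds bacterial siderophores. It had a signal over the 75th percentile of 1.60, 1.43 and 0.757 with LPS and was not well above background on untreated arrays, so it was at least 202-fold higher. It entered the test through the LPS arrays, where it is high, so no p-value is given. Hp, haptoglobin, which binds free haemoglobin, had 26.5, 30.1 and 10.3 with LPS, against 4.06, 2.75 and 1.27 untreated, and was higher by 3.06 ± 0.49 (limma, adjusted p = 0.00322). Cp, ceruloplasmin, the ferroxidase that works with ferroportin, had 1.23, 0.616 and 0.558 with LPS, against 0.0977, 0.0746 and 0.0392 untreated, and was higher by 3.51 ± 0.52 (limma, adjusted p = 0.00168). All LPS arrays lay above all untreated arrays for these 3 genes, and Hp and Cp were also called on spike-in scaling, at 2.78 and 3.23. Slc11a2, which encodes DMT1, the endosomal iron importer, was higher by 1.47 ± 0.17 (limma, adjusted p = 0.000365), and a second probe by 1.70. Maff, a small MAF gene, was higher by 1.84 ± 0.23 (limma, adjusted p = 0.000594), Slc39a14 by 1.09 ± 0.22 and Slc25a37 by 1.05 ± 0.22. The calls of Slc39a14 and Slc25a37 were each kept in 8 of 12 fits that left out 1 array each. Their second probes were not called, at 0.94 (limma, adjusted p = 0.191) and 0.75 (limma, adjusted p = 0.148). Abcb10, a mitochondrial transporter that binds mitoferrin, was lower, at -0.64 ± 0.17 (limma, adjusted p = 0.0477), in 3 of 12 fits that left out 1 array each. On spike-in scaling Maff was called (1.56), while Slc11a2 (1.20), Slc39a14 (0.81), Slc25a37 (0.78) and Abcb10 (-0.92) were not.

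With curcumin added to LPS, Hp and Cp were lower than with LPS alone on both scales. Hp had 2.95, 1.62 and 1.72 with LPS+curcumin and differed from LPS by -3.32 ± 0.49 (limma, adjusted p = 0.00253). Cp had 0.189, 0.0523 and 0.0613 and differed by -3.15 ± 0.52 (limma, adjusted p = 0.00373). On spike-in scaling these were -4.06 (limma, adjusted p = 0.00314) and -3.89 (limma, adjusted p = 0.00651). Lcn2 was well above background on 1 LPS+curcumin array, replicate 1, with 0.141, and not on replicates 2 and 3, so no fold is given, and all 3 LPS arrays lay above it. Slc11a2 was lower by -0.75 ± 0.17 on its brighter probe (limma, adjusted p = 0.0158), while a second probe gave 0.49 (limma, adjusted p = 0.0856), so this direction depends on the probe. That second probe was also higher with curcumin versus untreated (0.91; limma, adjusted p = 0.00614), where the brighter probe gave 0.12 (limma, adjusted p = 0.568). Maff had 4.36, 4.54 and 6.27 with LPS+curcumin, against 1.55, 1.69 and 1.78 with curcumin, and was higher by 1.58 ± 0.23 (limma, adjusted p = 0.0201), the 1 listed gene called in that comparison (1.89% of those tested, against 0.212% of all genes) and called in 7 of 12 fits that left out 1 array each.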

How the data were processed

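Per the labels' protocols, Cy3-labelled cRNA made from total RNA of 12 cell samples was measured on Agilent one-colour arrays. The deposited scanner files hold spot intensity on a linear scale. The processed signal, from which the authors' software had already subtracted background per the file headers, came from Feature Extraction by Agilent, for which the file headers give version 10.5.1.1 and the submitters' processing notes 9.1. The deposited value table holds the same intensity within 0.397% and served as an alternative.

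Outlier spots were dropped, a probe's spots averaged and log2 values set relative to each array's 75th percentile over the non-control spots (1639 of 45018 were controls). Names came from RefSeq accessions (GRCm38.p6), with 25097 of 41174 probes matched. The probe with the highest mean signal stood for a gene. A gene was tested (19323 were) if every array of some group showed it well above background. Tests used limma 3.58.1 in R 4.3.3 (4 group means, 12 arrays), with Benjamini-Hochberg adjustment over all of them and a call at an adjusted p below 0.05. The code was tested on simulated data. Between 58.0% and 65.9% of spots were well above background, no spot was saturated, and the number of arrays limits precision. Spike-in scaling used the mean log2 signal of 7 of 10 spike-in probes. Alternatives were other scalings, normexp on median signals (offset 50; mean signals had been planned and are not used here), the value table, other filters and probe rules, a 2-group fit, slide as a block and leaving out each array. Slide, scan and replicate number coincide per the file headers. Deviations of arrays from their group means correlated within a slide at 0.173 to 0.568, 0.114 to 0.37 and -0.02 to 0.711 on slides 1 to 3.

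The members and lists were chosen with earlier results of these data known. Named were all members, up to 4 called genes per list and comparison with the smallest adjusted p, and the 5 genes most and least correlated with Hmox1. A gene that this rule takes is not reported here. Cell type markers were listed likewise. Dim genes were given a bound, the bright group's mean over the higher of the dim probe's signal and the lowest signal well above background per array. Motifs were searched with Python 3.11.15.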

Additional observations from a re-analysis of the deposited data

Results flagged for a closer look

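By the interaction term of the model, the effect of curcumin was called different between LPS-treated and other cells for 2 of 53 listed genes tested. That is 3.77%, against 0.73% of all genes, and the lists were written with earlier results of these data known, so these shares are no test. For Hp the effect with LPS minus that without LPS was -3.53 ± 0.70 (limma, adjusted p = 0.0496), with signals over the 75th percentile of 2.95, 1.62 and 1.72 with LPS+curcumin, 3.85, 2.54 and 2.23 with curcumin, 26.5, 30.1 and 10.3 with LPS, and 4.06, 2.75 and 1.27 untreated. For Cp it was -3.86 ± 0.73 (limma, adjusted p = 0.0386), with 0.189, 0.0523 and 0.0613 with LPS+curcumin, 0.146, 0.0869 and 0.0988 with curcumin, 1.23, 0.616 and 0.558 with LPS, and 0.0977, 0.0746 and 0.0392 untreated. In both genes every LPS array was above every other array. The calls were kept in 3 (Hp) and 1 (Cp) of 12 fits that left out 1 array each, and on spike-in scaling the adjusted p was 0.381 and 0.401 (limma) with values of -3.16 and -3.49. Of the 5 scalings, both genes were called on 1, the 75th percentile.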

How the results depend on the processing

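For members and named genes, 1526 values kept their direction and their side of the threshold under an alternative, 177 lost the call, 12 gained it and 117 changed sign. Hmox1 kept its sign and its call under curcumin in both comparisons on all 5 scalings and without any 1 array. The count of members called with curcumin versus untreated (5 in the report, all higher) was 2 with median scaling (Hmox1 higher and Hmox2 lower, where 8.19% of all genes were higher and 25.1% lower), 1 with normexp and 2 to 6 when 1 array was left out. With LPS+curcumin versus LPS (3 in the report) it was 1 with normexp and 3 to 5 with 1 array left out. The 5, all higher, were without LPS+curcumin replicate 1, where 54.8% of all genes were called, 40% higher and 14.8% lower. On spike-in scaling without that array it was 5 (1 higher, 4 lower). With LPS versus untreated (0 in the report) it was 1 in a fit of the groups compared alone. No share of all genes is given for normexp, this 2-group fit, spike-in scaling without that array or other left-out arrays. The member counts under these settings therefore cannot be set against all genes. With slide as a replicate block the counts were 5 with curcumin versus untreated and 4 with LPS+curcumin versus LPS, and 0 in the other 3 comparisons. Over all genes the block called 8133 with curcumin versus untreated, against 5637 without it, and 5579 against 3621 with LPS+curcumin versus LPS. Over all genes 9581 were called with curcumin versus untreated and 10586 with LPS+curcumin versus LPS without LPS+curcumin replicate 1, and 9597 and 3239 on spike-in scaling. The causes of these shifts were not tested.

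Signs changed as follows (log2). On spike-in scaling, curcumin versus untreated gave Abcb6 -0.48, Bach1 -0.11, Blvra -0.78, Blvrb -0.01, Fth1 -0.46, Hscb -0.32, Pcbp2 -0.10, Slc11a1 -0.47, Slc25a37 -0.26 and Tfrc -0.71, LPS versus untreated Fth1 -0.09, Hmox2 -0.26 and Slc11a1 -0.04, LPS+curcumin versus LPS Abcb6 -0.04, Blvra -0.56, Fth1 -0.25, Slc11a1 -0.44 and Tfrc -0.56, and the interaction Blvra 0.22, Blvrb 0.10, Fth1 0.21, Hmox2 0.17, Slc11a1 0.04 and Tfrc 0.15. Leaving out LPS+curcumin replicate 1 as well, LPS+curcumin versus LPS gave Abcb6 -0.37, Blvra -0.71, Fth1 -0.34, Hscb -0.07, Slc11a1 -0.83, Slc40a1 -0.96 and Tfrc -0.65, LPS+curcumin versus curcumin Bach1 -0.14, Slc40a1 -0.67 and Slc48a1 -0.13, and the interaction Blvra 0.07, Blvrb 0.03, Fth1 0.12 and Tfrc 0.06, with the comparisons against untreated cells as with all arrays. With median scaling, curcumin versus untreated gave Abcb6 -0.21, Blvra -0.51, Fth1 -0.19, Hscb -0.05, Slc11a1 -0.20 and Tfrc -0.44, LPS+curcumin versus LPS Abcb6 -0.04, Blvra -0.55, Fth1 -0.24, Slc11a1 -0.43 and Tfrc -0.55, LPS versus untreated Hmox2 -0.14, and LPS+curcumin versus curcumin Fth1 -0.02. With normexp, curcumin versus untreated gave Abcb6 -0.02, Blvra -0.48, Fth1 -0.20, Hscb -0.03, Slc11a1 -0.16 and Tfrc -0.36, LPS versus untreated Hmox2 -0.02, LPS+curcumin versus curcumin Blvra 0.49, Hmox2 0.50, Slc11a1 0.61 and Tfrc 0.45, and the interaction Blvra 0.70, Blvrb 0.42, Fth1 0.70, Hmox1 0.31, Hmox2 0.52, Slc11a1 0.39 and Tfrc 0.50. With quantile scaling, Fth1 was -0.09 (curcumin versus untreated) and -0.07 (LPS+curcumin versus LPS), Hmox2 -0.09 (LPS versus untreated), Slc11a1 0 (LPS+curcumin versus curcumin), and the interaction 0.02 for both Blvra and Fth1. The always-detected percentile gave Hmox2 -0.02 (LPS versus untreated), and the mean over probes gave Slc48a1 0.02 (LPS versus untreated) and Slc39a14 -0.11 (curcumin versus untreated).

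With 1 array left out, signs changed within these ranges. LPS+curcumin versus curcumin ran from -0.10 to 0.35 for Bach1, -0.09 to 0.41 for Blvrb, -0.39 to 0.31 for Fth1, -0.39 to 1.81 for Slc40a1 and -0.56 to 0.04 for Tfrc. LPS+curcumin versus LPS ran from -0.11 to 0.40 for Blvra and -0.14 to 0.46 for Tfrc. Curcumin versus untreated ran from -1.23 to 0.09 for Slc40a1. LPS versus untreated ran from -0.09 to 0.14 for Hmox2, -0.05 to 0.07 for Slc48a1 and -0.11 to 0.06 for Tfrc. The interaction ran from -0.43 to 0.07 for Blvra, -0.47 to 0.03 for Blvrb, -0.57 to 0.13 for Fth1 and -0.53 to 0.07 for Tfrc. Array number limits all of these, and Hamp, Hpx and Lcn2 were not well above background on some arrays.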
